A study of Mus musculus with 16 samples.

Results

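The genes described here carry tryptophan down the kynurenine route and lysine down the saccharopine route. The list held 10 genes chosen by name, with earlier results of these data known. They were Tdo2, Afmid, Kmo, Kynu, Haao, Acmsd, Kyat3, Aadat, Aass and Aldh7a1. Of these, 9 had at least 1 probe set mapped to that gene alone and were described, out of 12393 genes measured in this way, and they held 12 probe sets. Acmsd had no such probe set and was left out. The tryptophan branch held 7 of the genes and the lysine branch held 3 (Aass, Aadat and Aldh7a1), with Aadat counted in both. RNA came from liver of KLF15-null mice, liver of WT mice, quadriceps muscle of KLF15-null mice and quadriceps muscle of WT mice, with 4 samples in each group and 1 Affymetrix Mouse430A_2 array per sample. All the mice were female, 4 to 5 months old, and had been fasted for 18 h. Klf15 belongs to the Kruppel-like transcription factors, which bind DNA through zinc fingers. The KLF15-null mice are called KO below, with their strain and the making of the null allele not given in the sources used here. Samples carry numbers in the labels with no statement that they come from different animals, and p-values cover only the spread between these samples.

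In the liver most dietary tryptophan that is not used for protein is opened by tryptophan 2,3-dioxygenase (Tdo2) to formylkynurenine, which kynurenine formamidase (Afmid) turns into kynurenine. Kynurenine is then either hydroxylated (Kmo) and passed by kynureninase (Kynu) and 3-hydroxyanthranilate dioxygenase (Haao) towards quinolinate and NAD, or transaminated to kynurenic acid by the kynurenine aminotransferases, Kyat3 and Aadat among them. Lysine is joined to 2-oxoglutarate and split again by the bifunctional enzyme Aass, its semialdehyde is oxidised by Aldh7a1, and the resulting aminoadipate is transaminated by Aadat. Both routes meet in ketoadipate and end in acetyl-CoA.

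Klf15 signal was checked before the other genes. It was 200.4, 155, 149 and 158 in KO liver, against 1016, 1221, 1279.5 and 855 in WT liver, and 15.6, 78.7, 89.3 and 45.6 in KO quadriceps, against 703, 514.5, 693 and 715 in WT quadriceps. In each tissue the highest KO array was below the lowest WT array, with the place of the probes relative to the change in the null allele not given in the sources used here. Median signals ran from 41.6 to 48.9 over the liver arrays and from 15.6 to 59.2 over the quadriceps arrays, so quadriceps signals were scaled to 1 common median and liver signals were used as deposited. KO quadriceps 8 stood apart, with the median of 15.6 against 32.5 or more on the others, a Gapdh 3'/5' ratio of 1.09 against 0.785 to 0.937, and a scan 3 days later, so tests that use quadriceps are also given without it. Station 1 of the fluidics washed every KO array and station 2 every WT array in both tissues, and genotype cannot be told apart from station. The 7 hepatocyte markers on the array summed to 55753 to 61009 in KO liver and 57844 to 61185 in WT liver, and 1 of them, Cyp2e1, was lower in KO. In quadriceps 5 of the 7 hepatocyte markers lay under the signal at which genes entered a test, and the 8 muscle fibre markers summed to 59748 to 207000 in KO and 64595 to 94594 in WT, with none called.

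In KO liver the first enzyme of tryptophan breakdown, the kynurenine aminotransferases Kyat3 and Aadat and all 3 lysine enzymes were lower than in WT liver, while kynurenine monooxygenase was higher. Of the 8 genes bright enough to be tested, 6 fell, 1 rose and 1, Haao, did not pass. Of the 6, Afmid entered the test through its WT signal alone, with a KO mean under the filter signal. Its call is not taken as support for a fall, though Afmid stays in this count and in the median over the 8 genes. The test was limma's moderated test on log2(signal + 16) within the tissue, adjusted by Benjamini-Hochberg over all 7988 genes with a threshold of 0.05. Over all those genes 5.25% were lower and 4.87% were higher in KO liver. The median log2 fold change, KO minus WT, was -1.25 over the 8 genes, against 0.03 over all genes tested. Since the genes were chosen with earlier results of these data known, these comparisons with all genes describe the list and are not a test of it. Kynu lay under the filter signal of 25.1 and was not tested. Samples were whole tissue, in which fewer cells of a type and less RNA per cell cannot be told apart.

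Tdo2, which commits tryptophan to the kynurenine route, had signals of 2297, 1873, 2628 and 1980.4 in KO liver, against 6475, 6510, 6066 and 6093 in WT liver. The highest KO array was well below the lowest WT array, and the KO mean was 34.9% of the WT mean (2195 ± 340, against 6286 ± 239, SD, n = 4 each). The log2 fold change was -1.52 (SE 0.095, adjusted p = 4.90e-07, limma). Pairs of arrays with the same fluidics module number, KO on station 1 and WT on station 2, gave values from -1.79 to -1.20. All 4 were negative, as any pairing of groups that do not overlap must be. A dimmer probe set of the same gene had 536, 424, 556.5 and 392 in KO liver, against 2506, 2340.3, 2861 and 2288 in WT liver, with a larger log2 fold change of -2.36 (SE 0.12). Both probe sets separated the groups, but they disagreed on the size.

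Afmid, the formamidase that follows Tdo2, had signals of 16.2, 42.6, 16.4 and 16.8 in KO liver, against 75, 50.1, 75.3 and 40.9 in WT liver. It was dim, and the groups overlapped, since KO 6 lay above WT 4. The log2 fold change was -0.99 (SE 0.23, adjusted p = 0.0163, limma), and Afmid missed the threshold when WT 1 or WT 3 was left out (adjusted p = 0.053 and 0.0502). The mean was 23 in KO liver, under the filter signal, and 60.3 in WT liver. Afmid thus entered the test through its WT signal alone, so its call is not taken as support for a fall.

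Kmo, the hydroxylase that directs kynurenine towards NAD, went the other way. Its signals were 1716, 1961, 1722 and 1959 in KO liver, against 1249.6, 1193, 1471 and 1574.5 in WT liver. All KO arrays lay above all WT arrays, by a small margin, and the log2 fold change was 0.42 (SE 0.1, adjusted p = 0.0169, limma). The call was lost when KO 8 or WT 2 was left out (adjusted p = 0.053 and 0.056), after median centring of log2 values (0.0532), and in a fit over all 16 arrays (0.0985). Kmo is also expressed by macrophages; the 10 macrophage and Kupffer cell markers summed to 5656 to 9026 in KO liver and 5046 to 7763 in WT liver, and 1 of them, Marco, was higher in KO. Their part in the result was not tested.

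The next enzymes on that side showed little change or little signal. Kynu, which cleaves hydroxykynurenine, had 30.8, 24.3, 30.7 and 22.5 in KO liver and 14.4, 5.1, 14.4 and 26.2 in WT liver, with overlapping groups close to or under the filter signal. Haao, which opens the ring of 3-hydroxyanthranilate, had 1399, 1403, 1455 and 1429 in KO liver, against 1657, 1508, 1821 and 1661 in WT liver. The Haao groups did not overlap, but the KO mean was still 85.5% of the WT mean and the log2 fold change of -0.22 (SE 0.077) did not pass (adjusted p = 0.098, limma, with a 95% interval from -0.39 to -0.05 before adjustment).

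The transaminating side was lower. Kyat3, kynurenine aminotransferase III, had signals of 482, 624.5, 762 and 750.3 in KO liver, against 2035.5, 2058, 1815 and 1567 in WT liver. The highest KO array was less than the lowest WT array, and the log2 fold change was -1.50 (SE 0.14, adjusted p = 2.15e-05, limma). The module pairs gave -2.04 to -1.05.

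Aadat serves both routes, as kynurenine aminotransferase II and as the aminoadipate aminotransferase of lysine breakdown, and it had the lowest ratio of KO to WT among the tested members. Its signals were 214.7, 136, 134 and 128 in KO liver, against 842, 995, 968 and 855 in WT liver. The KO mean was 16.7% of the WT mean (153 ± 41.1, against 915 ± 77.6, SD, n = 4 each). The log2 fold change was -2.48 (SE 0.14, adjusted p = 2.58e-07, limma), with module pairs from -2.73 to -1.90. KO 5 lay above the other KO arrays and still far below the WT arrays.

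Aass, the first enzyme of the lysine route, fell by a smaller amount. Its signals were 1568, 1468, 1406 and 1599 in KO liver, against 2363.5, 2079.5, 2612 and 2092 in WT liver. The groups were separate, and the log2 fold change was -0.59 (SE 0.089, adjusted p = 0.00101, limma).

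Aldh7a1, which oxidises the aminoadipate semialdehyde made by Aass, had 807, 858.5, 825.5 and 818 in KO liver, against 2610.4, 2384, 2856 and 2378.5 in WT liver. The KO arrays lay close together at 32.4% of the WT mean, and the log2 fold change was -1.61 (SE 0.081, adjusted p = 1.00e-07, limma). Of its 3 probe sets the other 2 lay under the filter signal on average in both tissues, at 9.97 ± 4.64 and 1.73 ± 1.07 in KO liver and 26.1 ± 15.2 and 4.05 ± 2.02 in WT liver (SD, n = 4 each), so its values rest on 1 probe set.

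**Figure D1:**
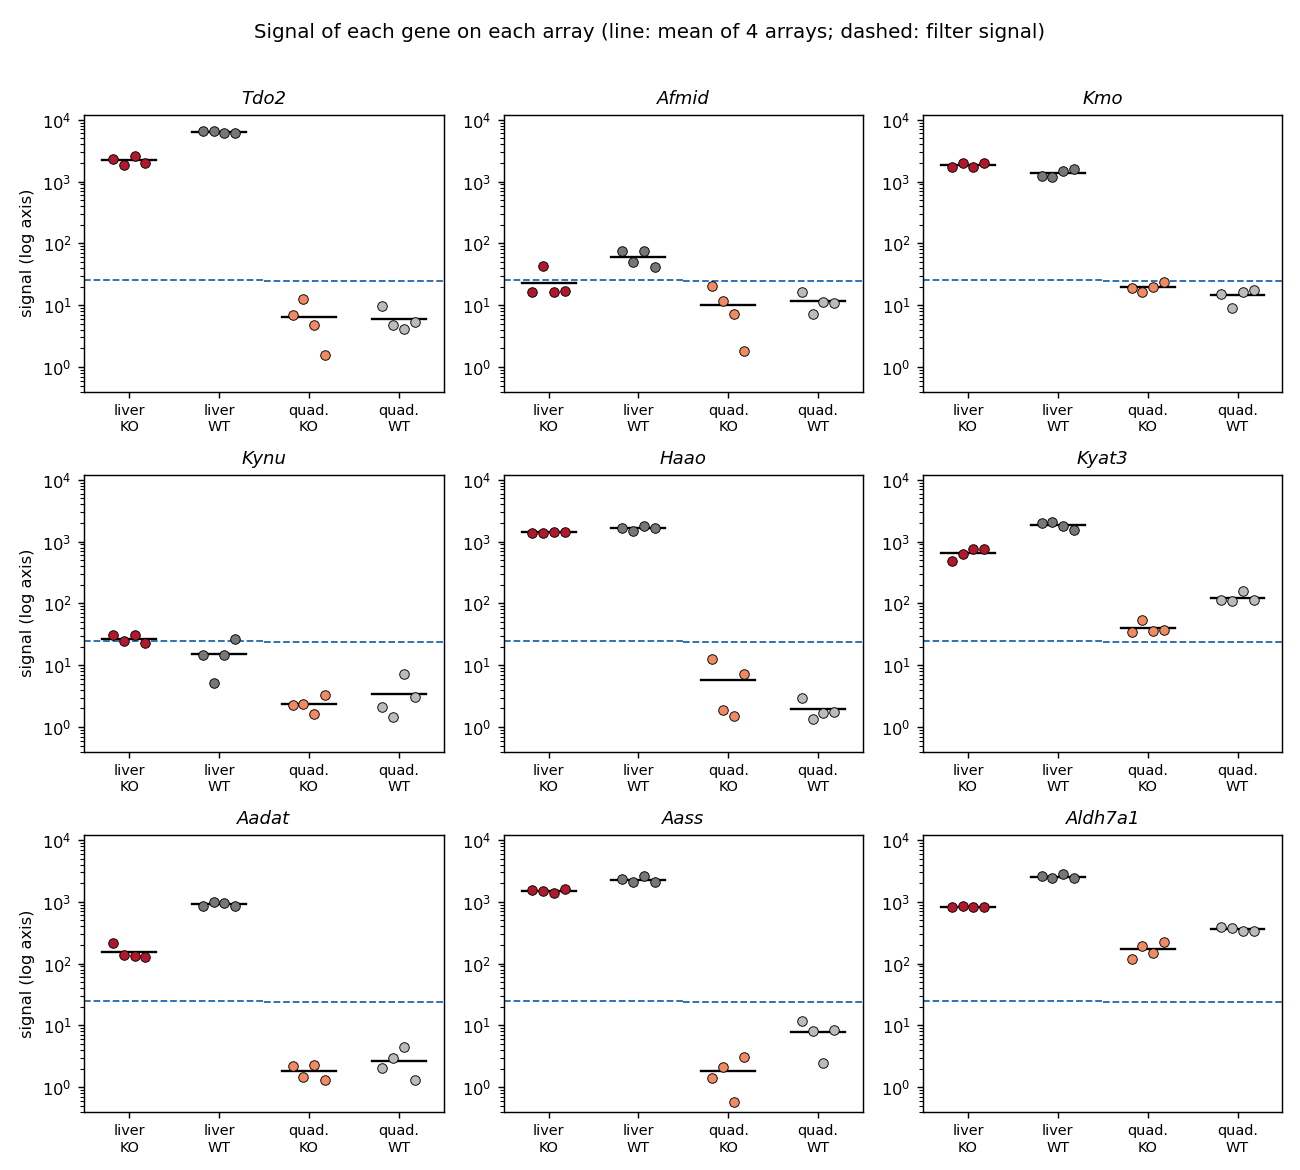
Signal of 9 genes on each of the 16 arrays, on a log axis, with KO left of WT in each tissue; each point is 1 array, the line is the mean of 4 arrays and the dashed line is the signal at which genes entered the test (25.1 in liver, 24.1 in quadriceps). In liver the KO points lie below the WT points for Tdo2, Haao, Kyat3, Aadat, Aass and Aldh7a1 and above them for Kmo, and in quadriceps only Kyat3 and Aldh7a1 lie above the dashed line in both genotypes.

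Set side by side, 4 of the 6 tested genes of the tryptophan branch were lower, 1 was higher and 1 did not pass, with a median log2 fold change of -1.25, and 3 of 3 genes of the lysine branch were lower, with a median of -1.61. Aadat stands in both counts, and Afmid, with a KO mean under the filter signal, stands among the lower genes of the tryptophan branch and in its median. In 6 of the 8 tested genes all KO liver arrays lay below all WT liver arrays, where 7.49% of all genes tested did so, and in 1, Kmo, all lay above, where 8.44% did so. The difference between the branches was not tested.

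Promoter windows are printed for 4 genes because Tdo2, Kyat3 and Aadat were lower together in KO liver while Kmo was higher. The windows are those of RefSeq on GRCm38.p6 and run from 250 bases before to 50 bases after the annotated start of transcription, 5′ to 3′ on the strand of the gene. They lie at chr3:81975679-81975978 on the minus strand (Tdo2), chr3:142700798-142701097 on the plus strand (Kyat3), chr8:60505874-60506173 on the plus strand (Aadat) and chr1:175631943-175632242 on the plus strand (Kmo). Capitals mark CACCC or its reverse complement GGGTG, the core bound by Kruppel-like factors.
Tdo2: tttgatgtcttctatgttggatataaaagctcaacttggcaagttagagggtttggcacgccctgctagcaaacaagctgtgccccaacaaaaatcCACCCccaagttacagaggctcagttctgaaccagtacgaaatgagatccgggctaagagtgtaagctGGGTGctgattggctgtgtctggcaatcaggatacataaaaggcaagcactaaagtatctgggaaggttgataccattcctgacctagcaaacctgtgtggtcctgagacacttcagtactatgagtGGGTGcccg
Kyat3: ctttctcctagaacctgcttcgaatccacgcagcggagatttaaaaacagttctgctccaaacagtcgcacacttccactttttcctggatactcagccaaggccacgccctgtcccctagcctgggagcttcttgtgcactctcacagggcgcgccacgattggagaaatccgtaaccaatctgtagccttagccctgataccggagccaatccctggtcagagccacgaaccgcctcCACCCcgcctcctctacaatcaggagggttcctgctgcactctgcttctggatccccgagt
Aadat: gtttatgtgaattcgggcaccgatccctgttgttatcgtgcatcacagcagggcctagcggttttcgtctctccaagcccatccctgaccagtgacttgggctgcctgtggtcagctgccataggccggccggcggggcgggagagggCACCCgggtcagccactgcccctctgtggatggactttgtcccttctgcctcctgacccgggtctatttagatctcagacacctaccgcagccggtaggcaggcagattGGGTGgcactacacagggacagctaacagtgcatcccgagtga
Kmo: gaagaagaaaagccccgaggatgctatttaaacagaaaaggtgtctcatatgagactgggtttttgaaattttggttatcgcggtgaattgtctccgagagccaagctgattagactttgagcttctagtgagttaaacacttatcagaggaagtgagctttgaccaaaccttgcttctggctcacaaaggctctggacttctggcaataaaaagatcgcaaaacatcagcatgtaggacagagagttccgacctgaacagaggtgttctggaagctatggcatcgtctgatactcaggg

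Tdo2 held 3 matches to that core, Aadat 2, Kyat3 1 and Kmo 0. Over the 7 members with a RefSeq window, 4 held at least 1 match (Afmid, with 3, was the other). That is near the share over all windows, 57.5% of the 32851 promoter windows of the same length. Haao held 0, as did Aass, which was also lower in KO liver. The 4 printed windows were picked by the knockout result, so their order of matches is no test of a link with it. The GC box, searched as CCGCCC on both strands, was found in 3 of the 7 (Afmid, Aadat and Aass), against 35.7% of all windows. The glucocorticoid receptor core, searched as AGAACA on both strands, was found in 2 (Kmo and Haao), against 19.0% of all windows. The Aadat window had a GC box from base -115 to -110 and a Kruppel-like core from -102 to -98, the closest pair of the 2 kinds in these windows, and no match to one motif overlapped a match to another. These matches describe letters in the windows and are not measured binding sites.

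**Figure D2:**
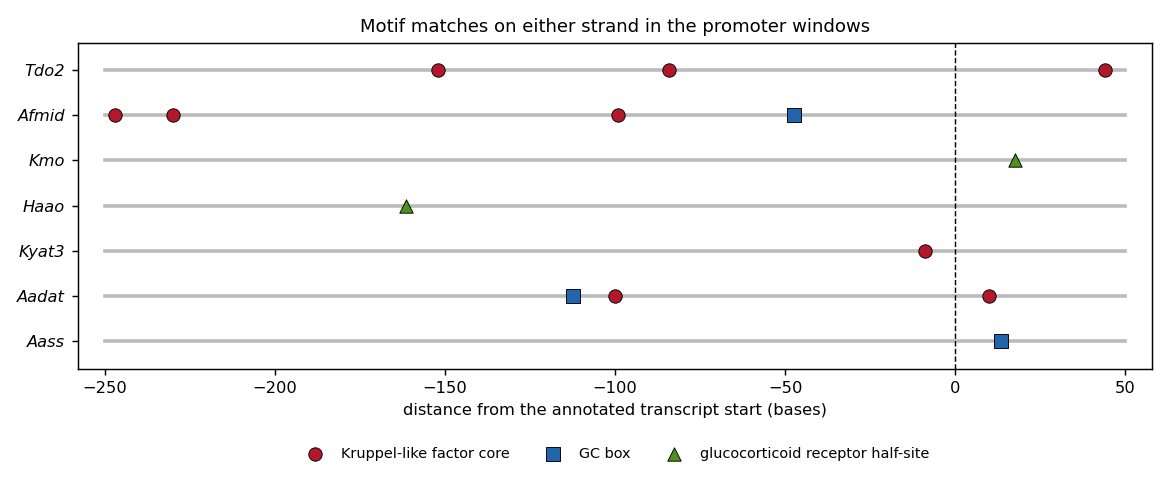
Position of motif matches on either strand in the promoter windows of 7 genes, in bases from the annotated start of transcription (dashed line); circles are Kruppel-like factor cores, squares GC boxes and triangles glucocorticoid receptor cores. Tdo2 and Afmid held 3 Kruppel-like cores each, Aadat 2 and Kyat3 1, and Kmo, Haao and Aass held 0.

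In quadriceps only Kyat3 and Aldh7a1 had enough signal to be tested, and both fell in KO. Over all 7988 genes tested in this tissue 0.976% were lower, which is 78 genes, and without KO 8 the share was 21.1%. The median log2 fold change of all genes was -0.18, so values relative to that median are given as well. The other 7 genes lay under the filter signal of 24.1, with group means from 1.79 to 19.6 in KO and from 1.93 to 14.5 in WT, and their differences between genotypes in muscle were not tested.

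Kyat3 had scaled signals of 34.2, 53.7, 35.5 and 37.1 in KO quadriceps, against 115, 109, 157 and 114 in WT quadriceps. The highest KO array was below the lowest WT array, at a mean of 32.5% of WT. The log2 fold change was -1.31 (SE 0.18, adjusted p = 0.000564, limma), -1.13 relative to the median of all genes. Without KO 8 it was -1.29 (adjusted p = 0.000761).

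Aldh7a1 had scaled signals of 119.6, 191, 149 and 223 in KO quadriceps, against 387, 375, 333 and 332 in WT quadriceps. After scaling, KO 8 was the highest of the KO arrays and still below every WT array, and the KO mean was 47.9% of the WT mean. As deposited, KO 8 was the lowest of the KO arrays, at 86.7, against 154.8 to 176.3. The log2 fold change was -1.03 (SE 0.2, adjusted p = 0.0156, limma), -0.84 relative to the median of all genes. Without KO 8 it was -1.16 (adjusted p = 0.00098), and the call was lost when WT 1, WT 2 or WT 3 was left out (adjusted p = 0.0709, 0.0776 and 0.0558). In both of these genes all KO arrays lay below all WT arrays, where 7.51% of all genes tested in quadriceps did so.

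The knockout effects in the tissues were then compared in 1 fit over all 16 arrays, as the effect in liver minus that in quadriceps, with p adjusted over its 8987 genes. A difference between tissues can be read only for Kyat3 and Aldh7a1, which were bright enough in both. Of those 2, 0 passed (limma, with 1 at an unadjusted p under 0.05), where 1.67% of the 6989 genes tested in both tissues had a difference past the threshold. The other 6 genes entered this fit through their liver signal alone and lay under the filter in quadriceps in both genotypes, so their differences restate the liver effect and are not given.

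The difference was -0.19 for Kyat3 (95% interval from -0.69 to 0.30, adjusted p = 0.698) and -0.58 for Aldh7a1 (from -1.05 to -0.11, adjusted p = 0.179, limma). Without KO quadriceps 8 it was -0.21 for Kyat3 (adjusted p = 0.547) and -0.45 for Aldh7a1 (adjusted p = 0.0862). The Aldh7a1 difference passed after quantile normalization (-0.81, adjusted p = 0.00846).

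**Figure D3:**
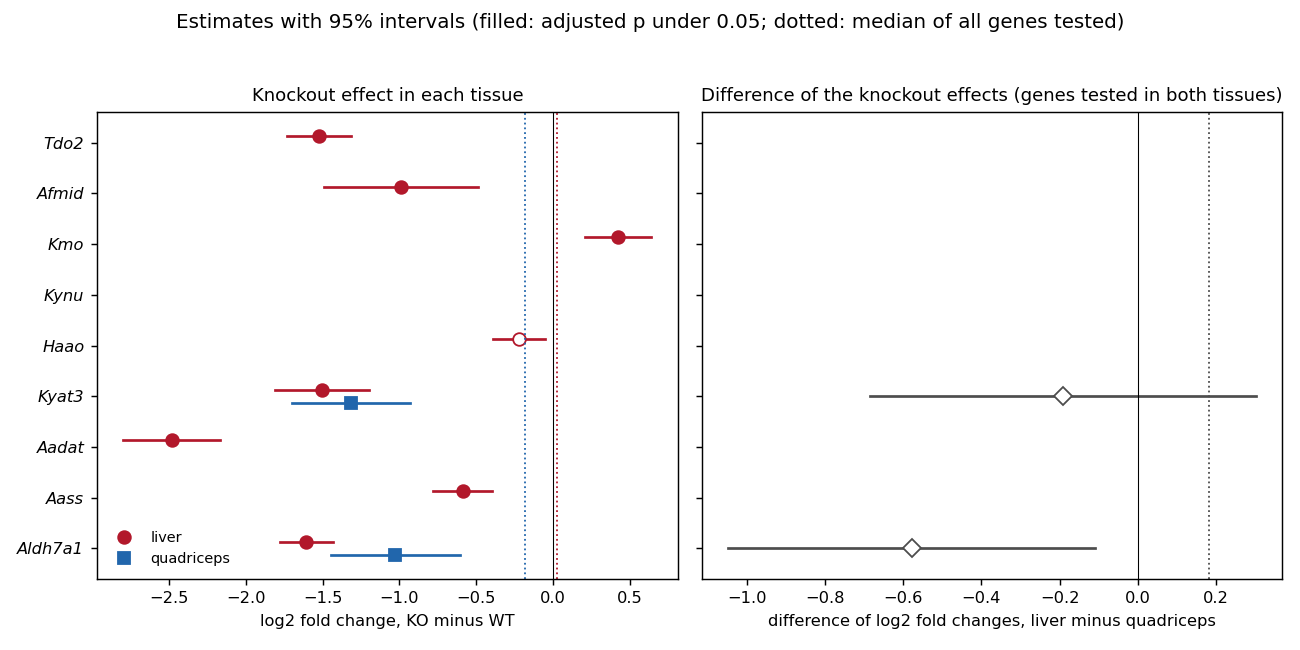
Log2 fold change, KO minus WT, of each gene in liver (circles) and quadriceps (squares) on the left, and the effect in liver minus that in quadriceps on the right for the 2 genes tested in both tissues, with 95% intervals; filled symbols passed the threshold and dotted lines are the medians of all genes tested. The liver estimates run from -2.48 (Aadat) to 0.42 (Kmo), Kyat3 is at -1.50 in liver and -1.31 in quadriceps, and neither symbol on the right is filled.

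Levels were also set between the tissues. Kyat3 and Aldh7a1, the genes measured in both, were higher in liver than in quadriceps, in KO as in WT, where 37.9% of the genes tested in both tissues were higher in liver in KO mice and 30.9% in WT mice. Over the larger set of 8987 genes that passed the filter in either tissue, 3498 were higher and 2658 lower in liver than in quadriceps of KO mice. After quantile normalization of the arrays 3004 of that set were higher and 3590 lower. The tissues were processed on different occasions, so tissue and occasion cannot be told apart. Levels set across tissues also rest on the scaling of the quadriceps arrays.

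The other genes were under the filter signal of 24.1 in quadriceps, so the liver mean was divided by that signal to give a lower bound. Tdo2 was at least 90.9-fold higher in liver than in quadriceps in KO and at least 260-fold in WT. Aadat was at least 6.35-fold higher in KO and at least 37.9-fold in WT. For both, the order of levels was WT liver, KO liver, then both quadriceps groups, which overlapped near 0 signal. The bounds in KO and in WT were 62.6 and 94.8 for Aass, 58.9 and 68.9 for Haao, and 76.2 and 56.9 for Kmo, the only one of these whose highest level was in KO liver. Afmid averaged 23 in KO liver and 10.2 in KO quadriceps, both under the filter, and its bound in WT was 2.50.

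Kyat3 and Aldh7a1 had 4 separate levels, in the order WT liver, KO liver, WT quadriceps and KO quadriceps, with no overlap between neighbours. Kyat3 was 3.57 (SE 0.17) higher in liver on the log2 scale in KO and 3.76 (SE 0.17) in WT. By means without the added 16, the order of KO and WT was reversed, at 16.3-fold in KO and 15.1-fold in WT. Aldh7a1, whose mean in WT quadriceps (357 ± 28.8) was below that in KO liver (827 ± 22.1, SD, n = 4 each), was 2.21 (SE 0.16) higher in KO and 2.79 (SE 0.16) in WT. Without KO quadriceps 8 the differences in KO were 3.55 for Kyat3 and 2.34 for Aldh7a1.

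The genes whose signals followed those of 3 members most closely over the 8 liver arrays were listed by Pearson's r on the log2 scale. The 8 arrays fall into the 2 genotypes, so r describes mostly the gap between them and is given with no test. For Tdo2 they were Pigr (r = 0.987), the receptor that carries polymeric immunoglobulins across epithelia, Ivd (0.986), the isovaleryl-CoA dehydrogenase of leucine breakdown, and Serpina12 (0.985). For Aadat they were Klf15 itself (0.994), the urea cycle enzyme Otc (0.990) and Fah (0.989), the last enzyme of tyrosine breakdown. For Aass they were Tmem134 (0.999), Adgra3 (0.990) and Pcca (0.987), a subunit of propionyl-CoA carboxylase.

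Other genes of the pathways were taken from a list of enzymes, transporters and cofactor genes, also chosen with earlier results of these data known. In liver 34 of them were tested, of which 7 were lower and 3 were higher in KO, where 5.25% of all genes tested were lower and 4.87% were higher. The median log2 fold change was -0.10, against 0.03 over all genes. In quadriceps 28 were tested, of which 4 were lower, where 0.976% of all genes were, and 0 were higher, with a median of -0.29, against -0.18 over all genes. Without KO 8, 13 of the 28 were lower in quadriceps, with a median of -0.46, against -0.28 and 21.1% lower over all genes, and leaving out any other quadriceps array gave 2 or 3. By sides in liver, 1 of 13 tested on the tryptophan side was lower and 0 were higher, 3 of 12 on the lysine side were lower and 2 were higher, and 2 of 8 in the shared lower steps were lower and 1 was higher. The count on the tryptophan side is near the 5.25% of all genes that were lower. The 1 cofactor gene, Pdxk, was lower.

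Gcdh, the glutaryl-CoA dehydrogenase on which both routes converge, was lower in both tissues. Its signals were 766, 798, 765 and 916 in KO liver, against 1573, 1370, 1585 and 1419.5 in WT liver, where the estimate was -0.86 on the log2 scale (SE 0.09, adjusted p = 5.27e-05, limma). In quadriceps they were 48.4, 57.9, 82.7 and 82.1 in KO, against 159, 249, 158 and 189 in WT, with an estimate of -1.29 (SE 0.2, adjusted p = 0.00154) and of -1.38 without KO 8 (adjusted p = 0.000755). The groups were separate in each tissue, and the call was kept in all 20 other settings run for liver and all 23 run for quadriceps.

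Sugct, which makes glutaryl-CoA from glutarate, had 64.9, 78.1, 61.2 and 61.5 in KO liver, against 140.3, 108, 147.5 and 107 in WT liver (log2 fold change -0.78, adjusted p = 0.00261, limma). Pipox, the peroxisomal oxidase of the pipecolate side route of lysine, had 784, 1045, 832 and 909 in KO liver, against 1439, 1628, 1484 and 1408 in WT liver (-0.74, adjusted p = 0.000445). Both had separate groups and kept their calls in all 20 other settings.

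Echs1, the short-chain enoyl-CoA hydratase, was lower in liver (-0.58, SE 0.086, adjusted p = 0.000936, limma), and its call in quadriceps (-0.91, SE 0.21, adjusted p = 0.046) held in 10 of 23 other settings, among them the one without KO 8 (-0.81, adjusted p = 0.00744). Nampt, which starts the making of NAD from nicotinamide, fell in liver by 0.62 on the log2 scale (adjusted p = 0.0357, limma). Pdxk, the kinase that makes the pyridoxal phosphate used by the aminotransferases and kynureninase, fell by 0.37 (0.0349). Etfb, a subunit of the electron acceptor of Gcdh, fell by 0.23 (0.0393). Those calls held in 9, 10 and 9 of 20 other settings. For Pdxk in liver the mean of all its probe sets gave -0.13 (adjusted p = 0.555, limma). Pdxk and Etfb did not pass in quadriceps with all arrays. Without KO 8 both were lower there, at -0.91 (adjusted p = 0.00618) and -1.04 (adjusted p = 0.0011, limma), where 21.1% of all genes were lower.

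The 3 genes higher in KO liver were Slc7a2, a transporter of lysine and arginine (519 ± 42.2, against 336 ± 19.2 in WT, SD, n = 4 each), Dlst and Ogdh. Dlst and Ogdh encode subunits of the 2-oxoglutarate dehydrogenase complex. The log2 fold changes were 0.61 (adjusted p = 0.00139), 0.50 (0.00535) and 0.44 (0.0369, limma). The calls held in 18 of 20 other settings for Slc7a2, 17 for Dlst and 12 for Ogdh. All 3 were lost in 1 fit of all 16 arrays (adjusted p = 0.471, 0.200 and 0.343, limma). For Dlst the mean of its 2 probe sets gave 0.10 (adjusted p = 0.655). Dlst did not pass in quadriceps with all arrays. Without KO 8 it was lower there (-0.52, adjusted p = 0.0406, limma), where 21.1% of all genes were lower. Slc7a2 and Ogdh did not pass in quadriceps with or without KO 8.

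In quadriceps Ehhadh, the peroxisomal bifunctional enzyme, had scaled signals of 16.2, 34.6, 34.3 and 40.7 in KO, against 121, 125, 175 and 92.5 in WT (log2 fold change -1.61, SE 0.22, adjusted p = 0.000496, limma). Without KO 8 it was -1.70 (adjusted p = 0.000388). In liver it had 3871 ± 346 in KO and 4502 ± 665 in WT (SD, n = 4 each) and did not pass (-0.21, adjusted p = 0.243), and the effect in liver minus that in quadriceps was 1.40 (adjusted p = 0.00655), and 1.49 without KO quadriceps 8 (adjusted p = 0.000857). Aldh9a1, a dehydrogenase of carnitine synthesis from trimethyllysine, was lower in quadriceps (-1.09, SE 0.22, adjusted p = 0.0195), a call that held in 15 of 23 other settings and at -1.18 without KO 8 (adjusted p = 0.00503). Among genes that did not pass in either tissue, those with the smallest p in liver were Etfa (-0.27), Inmt (-1.03), Nmnat1 (0.44) and Hadh (-0.18), with adjusted p from 0.0516 to 0.109.

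**Figure D4:**
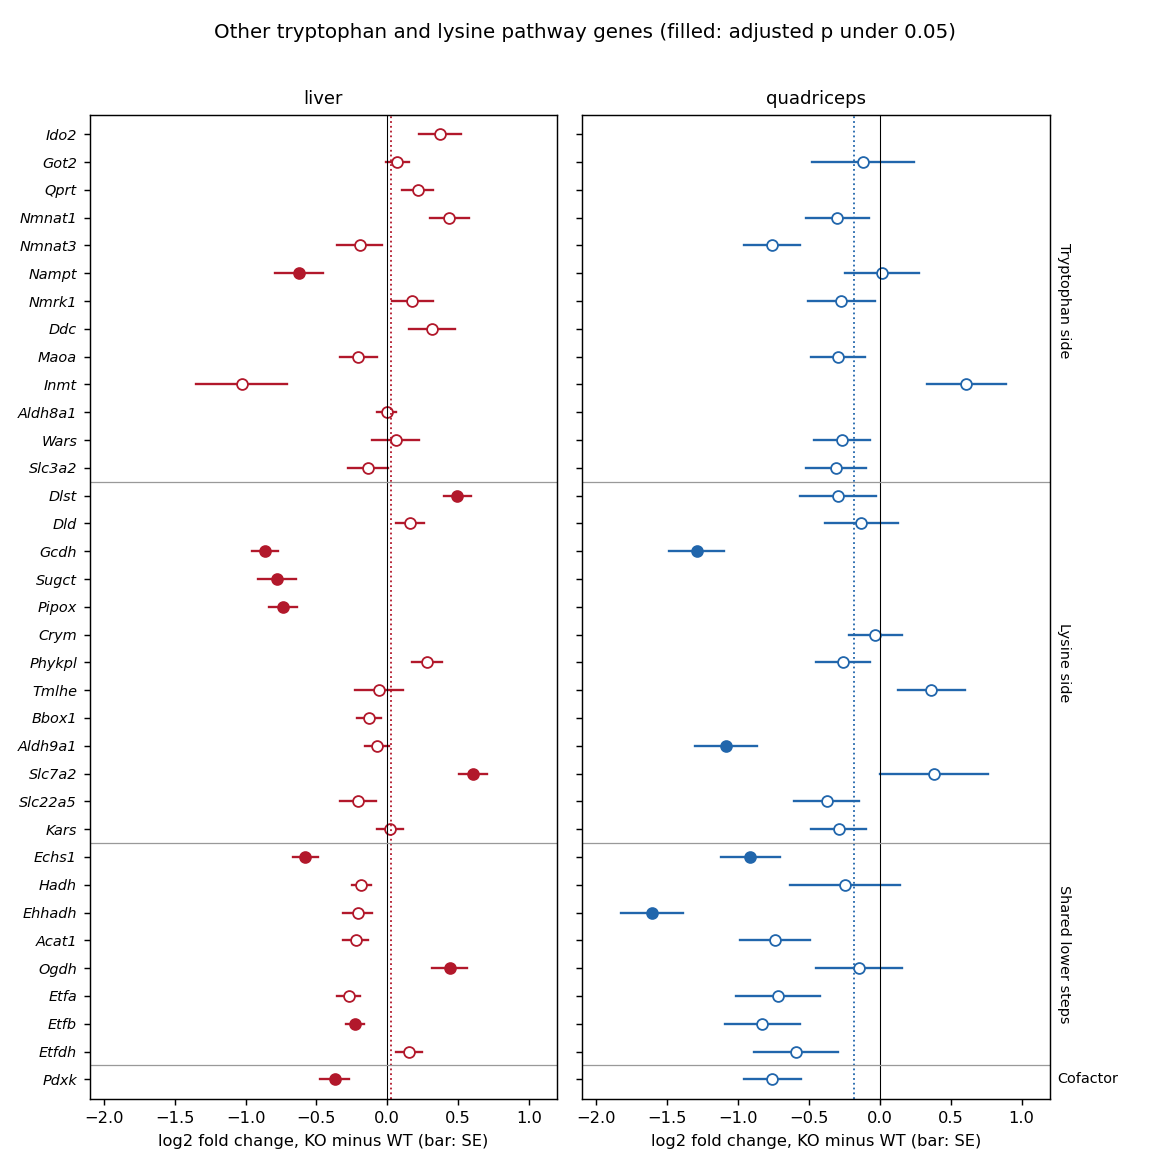
Log2 fold change, KO minus WT, of the other pathway genes in liver (left) and quadriceps (right), with the SE as bars; filled points passed the threshold and dotted lines are the medians of all genes tested. In liver 7 genes are filled on the lower side and 3 on the higher side, in quadriceps 4 are filled, all lower, and Gcdh and Echs1 are filled in both panels.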

How the data were processed

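Each array had a deposited table of linear signal intensity per probe set, which the authors produced in GCOS, Affymetrix's software, per the submitters' processing notes, with its version and settings not given in the sources used here. The members and lists were chosen with earlier results of these data known. Of 22626 probe sets that were not controls, 20380 had 1 gene symbol in the platform annotation, and symbols were updated through the RefSeq gene table of GRCm38.p6, which held 20351 of them. Liver arrays were used as deposited, since their medians differed by less than 1.5 times, and quadriceps arrays were multiplied by 0.678 to 2.57. Each gene was taken from its brightest probe set by mean over 16 arrays and tested where that mean in the tissue reached the 40th percentile. The scale was log2(signal + 16), on which changes of dim genes are understated. Fits used limma 3.58.1 (lmFit, eBayes with a variance trend) in R 4.3.3, with Benjamini-Hochberg adjustment over all genes of a comparison at 0.05, and were tested on simulated data. For arrays, their number (4 per group) limits the precision. Sample numbers were shared between tissues: the deviations of same-numbered samples correlated at -0.08 to 0.06 over 8 pairs, so they were not treated as pairs. Genes were named by a rule: all members, other pathway genes past the threshold in either tissue, the 4 with the smallest p in liver among the rest, and 3 most alike genes for Tdo2, Aadat and Aass. Settings tried included pseudocounts of 1 and 64, other filters, scalings and probe set rules, batch and replicate blocks, and each array left out. Figures were drawn with matplotlib 3.10.9.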

Additional observations from a re-analysis of the deposited data

Results flagged for a closer look

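On 4 occasions an array lay far from the other 3 of its group, by Dixon's gap at the 95% level. Afmid was 42.6 on KO liver 6, against 16.2 to 16.8 on the other KO liver arrays. Aadat was 214.7 on KO liver 5, against 127.7 to 136.1. In scaled signals Kyat3 was 53.7 on KO quadriceps 6, against 34.2 to 37.1, and 156.6 on WT quadriceps 3, against 109 to 115. As deposited, Kyat3 was 43.5 on KO quadriceps 6, against 14.4 to 50.5, and 147 on WT quadriceps 3, against 105.5 to 148.3. Neither array was the highest of its group before scaling. The 4 flags come from 36 groups of 4 examined, where chance gives about 1 in 20. Among the 27 other pathway genes tested in both tissues, the difference of the knockout effects between liver and quadriceps passed for 1, Ehhadh (1.40). Of all 6989 genes tested in both tissues, 1.67% passed.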

How the results depend on the processing

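No member changed direction past the threshold in any setting run. In liver, Tdo2, Kyat3, Aadat, Aass and Aldh7a1 kept their calls in all 20 other settings, as Kyat3 did in all 23 in quadriceps. The 1 higher member in liver (Kmo) became 0 with median centring of log2 values, in 1 fit of all 16 arrays and in that fit with a replicate block, and leaving out 1 array gave 0 to 1. In quadriceps the 2 lower members became 1 with the mean of all probe sets (Aldh7a1, -0.34, adjusted p = 0.297, over 3 probe sets of which 2 lie under the filter, which also gave -0.80 in liver and a liver minus quadriceps level of 0.80 in KO and 1.27 in WT), and leaving out 1 array gave 1 to 2. For the difference between tissues the 0 negative members of 2 tested became 1 (Aldh7a1) with quantile normalization, with or without KO quadriceps 8. Apart from the dim probe sets in that mean, the cause of these changes was not tested.

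Counts over all genes moved more. In liver 419 lower and 389 higher genes became 219 and 110 in 1 fit of all 16 arrays, and leaving out 1 array gave 237 to 363 higher. In quadriceps 78 lower genes became 45 with no filter or no variance trend, 914 with median centring, 134 with no scaling or with the fluidics module as a block, 305 in 1 fit of all 16 arrays, 417 with quantile normalization without KO 8, and 1675 with scan day as a block, and leaving out 1 array gave 36 to 1682, the highest without KO 8. For the difference between tissues 70 negative genes of 175 called became 34 of 95 with a pseudocount of 1, 135 of 343 with quantile normalization, 141 of 1031 with median centring, 40 of 288 with no scaling, 327 of 923 with quantile normalization without KO quadriceps 8 and 216 of 1672 without KO quadriceps 8 alone. With the sample number as a replicate block 122 genes were called for this difference, and 3 of 8 samples correlated best with their own number. No scaling for liver was the same as the values used, and a scan day block could not be fitted there, since all liver arrays were scanned on 1 day. Signals near the filter limit Afmid and Kynu in liver and 7 of 9 members in quadriceps.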
